A study of Mus musculus with 10 samples.

Results

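The start of the Kif11 gene and the Fgfbp3 gene lie 458 kb apart on mouse chromosome 19 (mm10), and the deposited lists of promoter contacts hold this pair from each end. The fragment with the Kif11 start (chr19:37376212-37377006) was captured as a bait and was listed with the Fgfbp3 fragment, and the fragment that holds the whole of Fgfbp3 (chr19:36916623-36921054) was captured as a bait and was listed with the Kif11 fragment. Described here are all pairs of either bait, and all pairs of any other bait whose second fragment (the other end) lies between 36.9 and 37.4 Mb of chromosome 19. They number 80 of the 100153 pairs in the lists: 79 of the 88624 pairs listed for stem and progenitor cells and 18 of the 25622 pairs listed for neutrophils, with 17 pairs in both lists. The Kif11 bait has 6 pairs and the Fgfbp3 bait has 14. The locus was chosen because its pairs scored lower in mutant than in wild-type progenitor cells, so every difference of that kind below is a description and supports nothing.

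Promoter-capture Hi-C joins DNA fragments that lay close together in fixed nuclei and then keeps the joined fragments that hold a promoter. It was run on 10 libraries of C57BL/6 mice, in 5 groups of 2 biological replicates. Of these, 4 groups are haematopoietic stem and progenitor cells (HSPCs), taken as the lineage-negative part of bone marrow with a depletion kit, and 1 group is bone marrow neutrophils from an isolation kit. The HSPC groups are wild type (WT), Npm1c (Npm1flox-cA/+;Mx1-Cre+), Flt3-ITD (Flt3ITD/+) and double mutant (DM, Npm1flox-cA/+;Flt3ITD/+;Mx1-Cre+), and the neutrophils are WT. Npm1c is a leukaemia mutation that carries nucleophosmin into the cytoplasm, and it is switched on here by Mx1-Cre, a recombinase under an interferon-inducible promoter. The Flt3-ITD allele duplicates part of a growth factor receptor, which then signals without its ligand, and it needs no Cre. The labels do not give the age of the mice, the substrain, or whether WT mice carried Cre. The libraries hold genomic DNA, so the markers of lineage-negative cells and neutrophils could not be checked at the level of RNA. The score is a bulk value, so fewer cells with a contact and a weaker contact in each cell cannot be told apart.

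Kif11 encodes a motor protein (Eg5) that pushes spindle poles apart in mitosis, and dividing progenitors depend on it. Fgfbp3 encodes a secreted protein that binds fibroblast growth factors and frees them from the matrix. Between them lie Btaf1 (an ATPase that removes the TATA-binding protein from DNA), Cpeb3 (an RNA-binding regulator of translation), Marchf5 (a ubiquitin ligase of the mitochondrial outer membrane) and Ide (the insulin-degrading protease), and beyond Kif11 lies Hhex, a homeobox factor of early blood and liver. Contacts between promoters are known to link genes over long distances, and where both fragments are baits the pair can be listed from each end. A single joined molecule can then be captured through either bait and count for both views, so the views of a pair from its ends are not separate observations. A stretch of this region that holds Ide and Fgfbp3 is known to differ in copy number among C57BL/6J mice. Copy number is not among the values used here, and its part in these scores was not tested. The score rests on joined DNA, so a contact across 458 kb and a different number or arrangement of copies of this stretch cannot be told apart with these files, and "contact" below means no more than a listed pair.

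The bases just before the starts of Kif11, Fgfbp3 and Btaf1 are shown because these are the promoters at the ends of the strongest pairs. They come from RefSeq on GRCm38.p6, the assembly that mm10 presents, and cover 250 bases up to each start: chr19:37376132-37376381 on the plus strand for Kif11, chr19:36919600-36919849 on the minus strand for Fgfbp3 and chr19:36925829-36926078 on the plus strand for Btaf1. Capitals mark the HindIII site AAGCTT, the CCAAT box (CCAAT, or ATTGG on the other strand) and the cell cycle homology region (CHR; TTTGAA, or TTCAAA on the other strand), motifs that do not overlap here and were chosen after these sequences had been seen.
Kif11: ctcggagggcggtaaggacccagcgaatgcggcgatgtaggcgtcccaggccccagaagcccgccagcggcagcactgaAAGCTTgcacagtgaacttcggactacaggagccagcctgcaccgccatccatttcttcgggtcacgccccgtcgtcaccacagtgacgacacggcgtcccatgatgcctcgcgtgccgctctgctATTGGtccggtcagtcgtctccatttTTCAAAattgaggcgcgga
Fgfbp3: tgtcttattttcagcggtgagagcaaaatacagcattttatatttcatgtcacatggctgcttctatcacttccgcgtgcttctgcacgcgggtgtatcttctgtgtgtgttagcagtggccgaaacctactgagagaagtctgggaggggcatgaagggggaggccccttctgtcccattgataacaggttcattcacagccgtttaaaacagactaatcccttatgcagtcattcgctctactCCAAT
Btaf1: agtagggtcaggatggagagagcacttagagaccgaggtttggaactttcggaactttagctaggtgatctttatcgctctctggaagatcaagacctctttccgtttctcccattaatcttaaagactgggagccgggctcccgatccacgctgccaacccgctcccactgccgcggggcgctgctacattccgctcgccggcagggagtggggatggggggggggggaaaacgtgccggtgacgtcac
The HindIII site in the Kif11 sequence lies 171 to 166 bases before the start and marks the edge of the Kif11 bait fragment, so the bait holds the last part of the promoter and the first bases of the gene. Kif11 also holds a CCAAT box 45 to 41 bases and a CHR 19 to 14 bases before its start. Fgfbp3 has a CCAAT box 5 to 1 bases before its start, and none of these letters occur in the Btaf1 window. Among 32851 mouse promoters searched over the same length on both strands, 6.22% hold the HindIII site, 33.9% the CCAAT box and 16.0% the CHR. A match describes letters in this window and is no measure of binding.

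Seen from the Kif11 bait, the Fgfbp3 fragment scored 20.2 and 20.3 in the WT HSPC libraries. The same pair scored 0 and 1.23 in the Npm1c libraries, 0 and 1.96 in the Flt3-ITD libraries, and 4.58 and 0 in the DM libraries. Both WT libraries lay far above the 6 mutant libraries, which all stayed under 5, the score a pair must reach in both replicates of a group to enter the list. WT neutrophils scored 17.0 and 16.1. Their list was deposited separately, holds only pairs at 5 or more in both libraries, and its scaling against the HSPC list is not stated. No rank of neutrophils against the mutant HSPCs is therefore read here or below. The means were 20.2 ± 0.0683 for WT, 0.616 ± 0.872 for Npm1c, 0.981 ± 1.39 for Flt3-ITD, 2.29 ± 3.24 for DM and 16.5 ± 0.615 for neutrophils (SD, n = 2 libraries in each group).

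Seen from the Fgfbp3 bait, the Kif11 fragment scored 15.4 and 13.6 in WT HSPCs, 0 and 1.56 in Npm1c, 0 and 1.70 in Flt3-ITD, and 3.19 and 0 in DM. WT neutrophils scored 15.4 and 16.3. The libraries at 0 were the same from both ends: replicate 1 of Npm1c, replicate 1 of Flt3-ITD and replicate 2 of DM. On the log2(score + 1) scale, the Kif11 view differed from WT by -3.83, -3.63 and -3.17 for Npm1c, Flt3-ITD and DM. The differences in the Fgfbp3 view were -3.27, -3.24 and -2.92 in the same order. Both views can hold the same joined molecules, and the locus was chosen on these values, so their likeness supports nothing. Over the 3308 listed contacts present from both ends, Spearman's rho between the scores of the ends lay between 0.560 in Flt3-ITD and 0.619 in Npm1c, a description across contacts that share libraries.

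**Figure D1:**
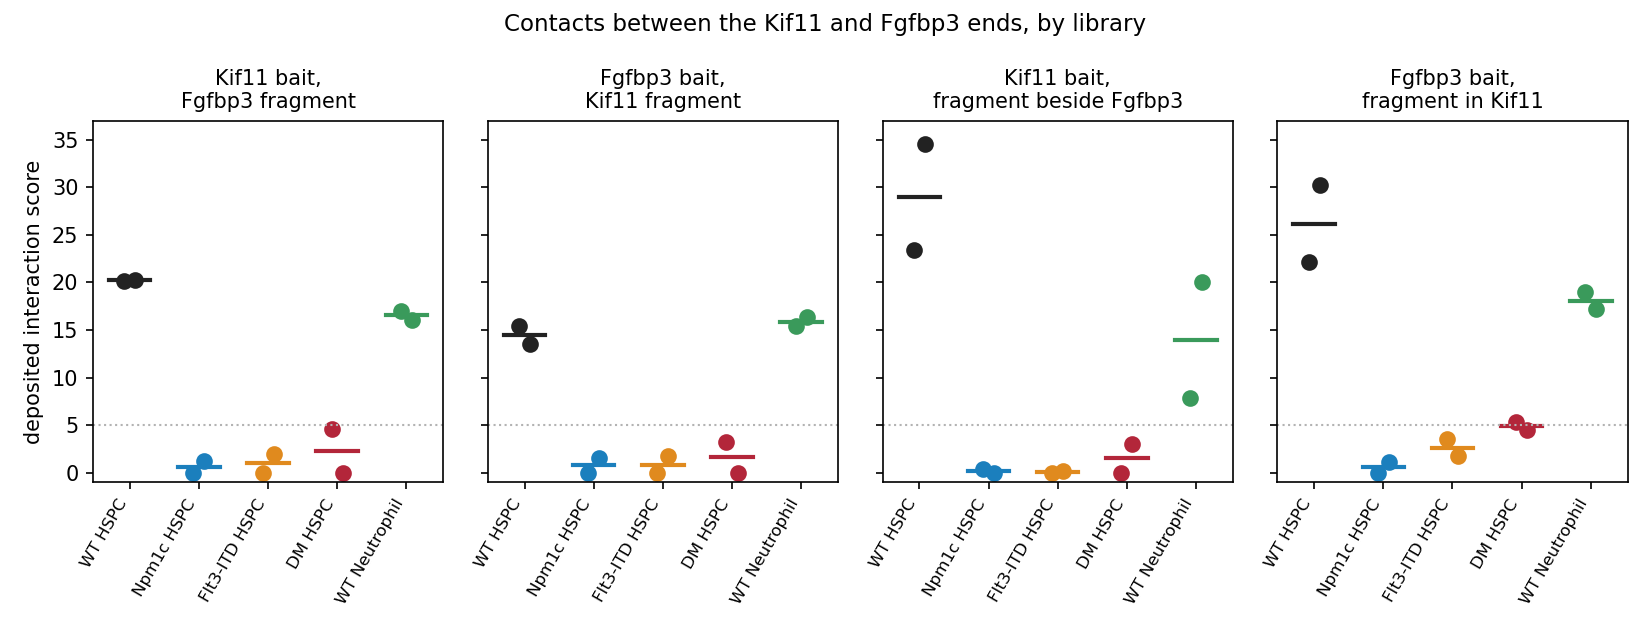
Deposited interaction score of 4 pairs that join the Kif11 and Fgfbp3 ends; each point is 1 library, each bar the mean of the 2 libraries of a group, and the dotted line the listing score of 5. From the Kif11 bait the Fgfbp3 fragment sits at 20.2 and 20.3 in WT HSPCs and at 4.58 or less in all 6 mutant libraries, and neutrophils sit at 16.1 and 17.0.

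The highest score of the Kif11 bait belonged to the fragment next to Fgfbp3 (chr19:36912558-36916622), just past the end of the gene, which holds no gene in the RefSeq table. It scored 23.4 and 34.6 in WT HSPCs, 0.401 and 0 in Npm1c, 0 and 0.132 in Flt3-ITD, and 0 and 2.98 in DM. In WT neutrophils it scored 7.86 and 20.0, wide between replicates. The highest score of the Fgfbp3 bait belonged to the fragment next to the Kif11 start, inside the Kif11 gene (chr19:37377007-37378584). It scored 22.1 and 30.3 in WT HSPCs, 0 and 1.10 in Npm1c, 3.51 and 1.71 in Flt3-ITD, and 5.31 and 4.48 in DM, with a neutrophil mean of 18.1 ± 1.32 (SD, n = 2). DM was the highest of the mutant groups in this pair, and both DM libraries still lay far below both WT HSPC libraries.

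In WT these scores were high for contacts of this length. The locus was chosen for scoring lower in mutants than in WT, which favours high WT and low mutant scores. The ranks below are thus a description and support nothing. In a window of 400 to 500 kb, chosen after the values were seen, 5943 pairs were listed, and the median of their WT means was 4.54. In WT, 6 of them had a higher mean than the Kif11 view of the Fgfbp3 fragment, and 22 had a higher mean than the Fgfbp3 view of the Kif11 fragment. No pair of that length scored above the Kif11 bait with the fragment beside Fgfbp3, and 1 scored above the Fgfbp3 bait with the fragment inside Kif11, which is that same Kif11 pair. Over all 88624 listed pairs, 229, 881, 59 and 93 had a higher WT mean than these 4 pairs in that order. In DM, by contrast, 5249 of the 5943 pairs had a higher mean than the Kif11 view of the Fgfbp3 fragment.

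The Kif11 bait reached 4 further fragments around Fgfbp3 and the start of Btaf1. The fragment 36910759-36912557 scored 9.21 and 17.0 in WT and between 0 and 2.80 in the mutant libraries. The fragment 36921055-36924621, between Fgfbp3 and Btaf1, scored 6.07 and 16.8 in WT and between 0 and 4.58 in the mutants. The fragment with the Btaf1 start (36924622-36928049) scored 6.30 and 19.9 in WT and between 1.76 and 6.12 in the mutants, so the lower WT library only just cleared the highest mutant. The last of the 4, a short fragment inside Btaf1 (36928050-36928676), did not separate: WT scored 4.57 and 5.91, Npm1c 6.66 and 8.27, Flt3-ITD 5.84 and 3.78, DM 4.30 and 5.54, and neutrophils 6.23 and 14.7. It lies directly beside a fragment that did separate. So 5 of the 6 Kif11 pairs had both WT libraries above all 6 mutant libraries (all listed pairs: 6.01%). All 6 were also in the neutrophil list (all listed HSPC pairs: 15.9%).

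All 14 pairs of the Fgfbp3 bait had both WT libraries above all 6 mutant libraries, and all of them reached 5 in both replicates in WT and in no mutant group. Each of the 14 thus entered the HSPC list through WT alone, which favours this order, so the count supports nothing. The like counts of the other baits share this limit, since 67 of the 79 HSPC pairs passed in WT alone. Besides the fragments at the Kif11 start, the Fgfbp3 bait reached the fragment before it (37374272-37376211), which scored 7.42 and 15.6 in WT and between 0 and 3.13 in the mutants. A fragment deeper in Kif11 (37378785-37385337) scored 10.1 and 29.2 in WT, between 0 and 3.09 in the mutants, and 11.6 and 10.3 in neutrophils. The other 10 pairs reached fragments from the Gm9056 pseudogene through Ide to the stretch before Kif11, with WT means between 6.22 and 8.80. Every mutant library stayed under 5 in each of these 10 pairs, the highest being Npm1c replicate 2 with the fragment 37238930-37241988. These 10 fragments thus scored at a low and even level in WT, and the score rose steeply within a few kb of Kif11, 456 to 463 kb from the bait. Across the 14 pairs, the WT mean rose with the distance between the ends (Spearman's rho 0.74, a description over 14 pairs that share a bait). Whether the score was already corrected for distance is not given in the sources used here.

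**Figure D2:**
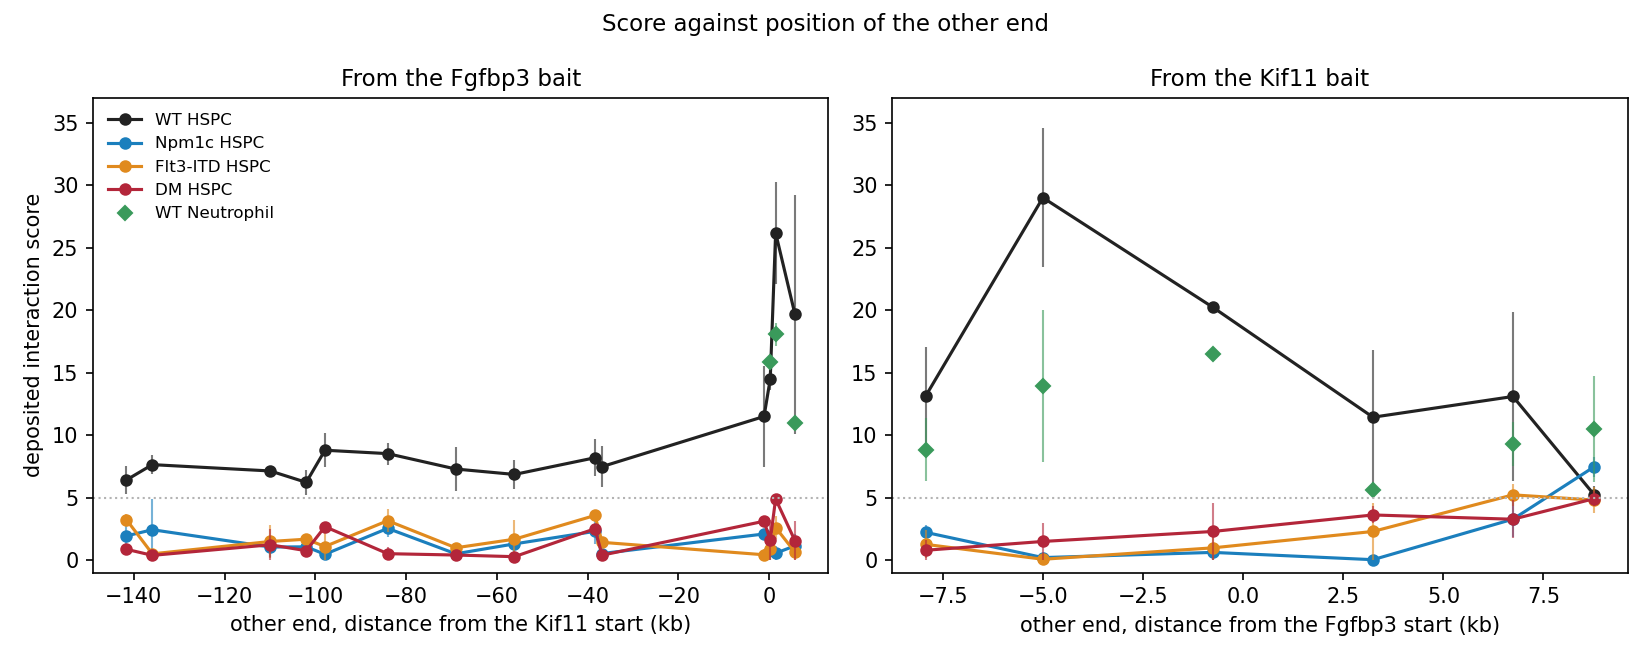
Mean deposited interaction score (y axis) against the position of the other end, for the Fgfbp3 bait (left, kb from the Kif11 start) and the Kif11 bait (right, kb from the Fgfbp3 start); vertical lines span the 2 libraries of a group. WT HSPCs peak at 26.2 beside the Kif11 start and at 29.0 beside Fgfbp3, while the mutant means stay under 5 on the left and at 7.47 or below on the right.

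Btaf1, whose start lies beside Fgfbp3, was listed with Kif11 from its own bait as well, a view that can share molecules with that of the Kif11 bait. The Kif11 fragment scored 7.70 and 20.5 in WT from the Btaf1 bait, close to the 6.30 and 19.9 of the reverse capture. The mutant libraries scored between 1.81 and 6.86, and neutrophils scored 13.6 and 8.99. The Btaf1 bait with the fragment inside Kif11 (37377007-37378584) scored 11.2 and 19.6 in WT and between 0 and 3.43 in the mutants. With the fragment before Kif11 (37374272-37376211) it scored 5.76 and 16.2 in WT and between 0.438 and 2.72 in the mutants, and with the deeper Kif11 fragment (37378785-37385337) 7.58 and 13.0 in WT and between 0.199 and 5.44 in the mutants. It also reached the Gm9056 fragment, at 7.02 and 12.9 in WT, between 0.595 and 3.93 in the mutants, and 7.71 and 5.34 in neutrophils. In each of these pairs WT replicate 2 was the higher WT library. All 7 pairs of Btaf1 in the HSPC list had both WT libraries above all 6 mutants, with WT means from 7.04 to 15.4. An eighth Btaf1 pair, with a fragment inside Ide (37285345-37288256), was in the neutrophil list alone, at 5.52 and 5.39.

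The fragment of the Gm9056 pseudogene (37230686-37238929, which also holds the small nuclear RNA gene Gm25268) had the most pairs, 22, and these split by where they landed. The 14 pairs that ended beside Fgfbp3 or in the first part of Btaf1, between 36912558 and 36973045, all had both WT libraries above all 6 mutants. The 8 that ended in Cpeb3 had none. The strongest was with the Btaf1 fragment 36967084-36969342, at 12.4 and 29.2 in WT, 4.27 and 2.02 in Npm1c, 3.99 and 2.06 in Flt3-ITD, 1.67 and 1.60 in DM, and 12.1 and 6.42 in neutrophils. The next was with 36962452-36963930, at 14.1 and 17.6 in WT and between 0.858 and 4.14 in the mutants. The neighbouring Btaf1 fragments had the same order: 36963931-36966606 had 6.21 and 20.7 in WT, between 0.559 and 4.31 in the mutants, and 8.39 and 8.45 in neutrophils, and 36969343-36973045 had 8.81 and 19.7 in WT and between 0.962 and 6.01 in the mutants. Nearer the Btaf1 start, 36932832-36942774 had 11.3 and 14.7 in WT, between 1.24 and 5.36 in the mutants, and 5.06 and 6.21 in neutrophils. The fragment 36954655-36962391 had 12.1 and 13.8 in WT, 7.49 and 5.13 in Npm1c, and between 0.963 and 3.25 in the other mutant libraries, so Npm1c passed 5 in both replicates there while WT stayed above it. The fragments 36943283-36945160 and 36945298-36951513 had WT means of 12.3 and 9.80 with mutant libraries up to 3.36 and 4.79, and 36966607-36967083 had 6.03 and 16.0 in WT with mutant libraries up to 3.19. In Cpeb3 the pair with 37041417-37042226 was highest in Flt3-ITD, at 10.0 and 7.14, against 4.73 and 5.20 in WT. The pair with 37050514-37057695 scored 8.78 and 9.60 in DM and 3.25 and 10.4 in WT, so the WT libraries spanned all mutant libraries.

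A bait upstream of Ide (37336716-37339245), which holds no gene start or end in the RefSeq table, had 16 pairs, and 11 of them had both WT libraries above all 6 mutants. Its strongest was with the Btaf1 fragment 36945298-36951513, at 5.52 and 22.1 in WT and between 1.39 and 4.79 in the mutants, a pair whose height rests on WT replicate 2. Its pairs with 36912558-36916622, beside Fgfbp3, scored 5.08 and 12.5 in WT and between 0.525 and 2.39 in the mutants. Its other strong pairs were with Btaf1 fragments too: 36932832-36942774 at 8.04 and 13.5 in WT, 36942775-36943282 at 7.15 and 14.8, and 36951514-36952863 at 6.24 and 14.5, each with all mutant libraries at 4.28 or less. With 36963931-36966606, at 5.32 and 14.8 in WT and 5.56 and 5.91 in neutrophils, Flt3-ITD replicate 1 reached 6.06 and so overlapped WT. WT replicate 2 was again the higher WT library in these pairs. The bait shared by Cpeb3 and Marchf5 (37202912-37210947) had 10 pairs, 6 with both WT libraries above all mutants. Its levels were lower throughout: its highest WT mean was 8.13, for a fragment inside Cpeb3 whose mutant means ran from 5.39 to 5.86.

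A few pairs, some of them picked after their values were seen, ran the other way. The bait of Tnks2, which lies before Fgfbp3 and encodes a tankyrase (an ADP-ribosyl transferase), had 3 pairs in the locus, none with WT above the mutants. Its pair with the Cpeb3 and Marchf5 fragment scored 1.47 and 1.30 in WT against 5.53 and 12.2 in Npm1c, 7.57 and 6.97 in Flt3-ITD, and 1.58 and 11.9 in DM. Its pair with the Gm9056 fragment was highest in Npm1c, at 12.8 and 6.65, and scored 1.42 and 7.66 in WT, 0 and 3.93 in Flt3-ITD, and 1.58 and 0 in DM. Its pair with the Btaf1 start scored 1.69 and 1.57 in WT and between 1.78 and 10.7 in the mutants. The Cpeb3 and Marchf5 bait with 37016085-37016665, just past the end of Btaf1, scored 1.39 and 0.766 in WT and between 1.49 and 6.05 in the mutants. In 3 of these pairs, all but the one with Gm9056, all 6 mutant libraries lay above both WT libraries, though for the lowest mutant library only by a small margin. Over all 88624 listed pairs, 7746 had all 6 mutant libraries above both WT libraries, so nothing is read from these 3. The bait of Hhex had 1 pair in the locus, with the fragment beside Fgfbp3, at 6.11 and 8.57 in WT and between 0.00622 and 4.89 in the mutants.

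**Figure D3:**
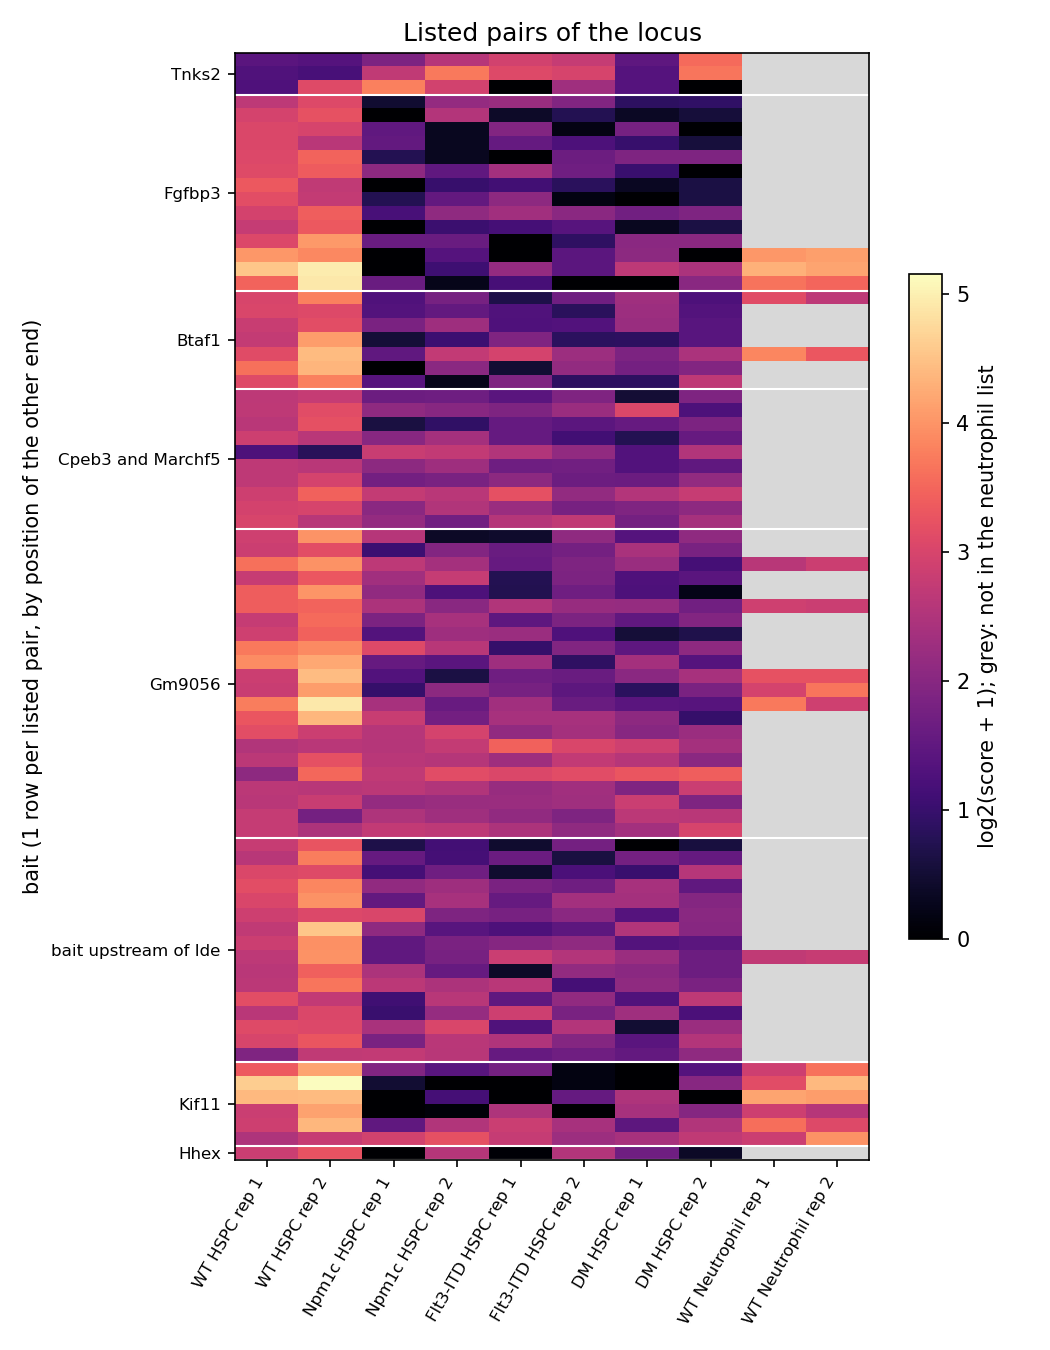
Log2(score + 1) of the 79 HSPC pairs of the locus, 1 row per pair grouped by bait and ordered by the position of the other end, 1 column per library; grey marks pairs outside the neutrophil list. In most rows the WT columns are brighter than the 6 mutant columns (both WT libraries above all mutants in 58 of 79 rows), and the 3 Tnks2 rows at the top show the opposite or no order.

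Counted over the 79 pairs, 69 reached 5 in both WT replicates, 9 in both Npm1c, 4 in both Flt3-ITD and 2 in both DM replicates. The shares of all 88624 listed pairs that did so were 34.9%, 41.8%, 51.2% and 48.8% for these groups. WT was the sole HSPC group to pass in 67 of the 79, Npm1c in 5, Flt3-ITD in 2 and DM in 1. Both WT libraries lay above all 6 mutant libraries in 58 of the 79 pairs, where 6.01% of all listed pairs did. Since the locus was chosen on this contrast, nothing is read from that gap. With WT replicate 1 left out the count was 66 (all listed pairs: 12.1%), and with WT replicate 2 left out it was 61 (13.2%). Leaving a library out can only keep or raise this count, so these values do not show whether it rests on 1 library. A stricter rule chosen after the values were seen, both WT libraries at 10 or more and all 6 mutants under 5, held for 13 listed pairs (0.0147%), and 7 of them lay in this locus. Of the 13, 5 were also in the neutrophil list (all listed HSPC pairs: 15.9%), and all 5 of these lay in this locus. The rule uses the contrast on which the locus was chosen. The 7 include both views of the Kif11 and Fgfbp3 pair, which can share molecules, so nothing is read from these counts.

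WT replicate 2 scored above WT replicate 1 in 62 of the 79 pairs, against 42.4% of all listed pairs. The median score over the locus was 6.32 in WT replicate 1 and 9.13 in WT replicate 2, and between 2.31 and 3.05 in the 6 mutant libraries. Over all listed pairs the library medians ran from 4.76 to 5.74, and WT replicate 2 was the lowest of the 8. The part of library depth or scaling in the locus values of that library was not tested. No locus pair was at 0 in a WT library, whereas Npm1c had 8 and 1 pairs at 0, Flt3-ITD 6 and 2, and DM 5 and 5. Of all listed pairs, 3.01% and 3.34% were at 0 in WT, 2.96% and 1.45% in Npm1c, 1.43% and 1.05% in Flt3-ITD, and 2.12% and 2.22% in DM. For the 69 locus pairs that reached 5 in both WT replicates, a WT score of 0 was not possible.

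No pair of the flanking windows had both WT libraries above all mutants, which does not show that the pattern stops at the locus. Among the 75 pairs with both ends between 36.9 and 37.4 Mb, 57 had both WT libraries above all mutants, and the medians of the group means were 7.93 for WT and 2.54, 2.29 and 2.65 for Npm1c, Flt3-ITD and DM. Of 43 pairs with both ends in the 1 Mb after it, 0 did so, and the medians were 4.71, 4.63, 5.94 and 7.08 in the same order. Of 5 pairs with both ends in the 1 Mb before it, 0 did so. Over the 3049 pairs of chromosome 19 the share was 6.95%. Of the 43 pairs after the interval, 10, 5, 25 and 39 reached 5 in both replicates of WT, Npm1c, Flt3-ITD and DM. Most of them thus passed in a mutant group, which leaves little room for WT to lie above all mutants. Of the 18 pairs of the Hhex bait outside the locus, 0 had both WT libraries above all mutants, and its 1 pair into the locus did. The medians of those 18 were 5.43, 4.91, 6.69 and 8.93 in the order used above, so Npm1c lay below WT there and the other mutants above it, and 8, 2, 15 and 16 of the 18 reached 5 in both replicates. These windows were chosen after the values were seen and carry no test.

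Within the locus the WT scores were highest where the ends lay closest to the Fgfbp3 and Kif11 starts. For each pair, the distance of the left end from the Fgfbp3 start (36919599) and of the right end from the Kif11 start (37376382) were summed, a measure chosen after the values were seen. The 20 pairs with a sum under 50 kb had a median mean score of 11.5 for WT and of 1.35, 1.44 and 2.56 for Npm1c, Flt3-ITD and DM. For the 22 pairs at 50 to 150 kb the medians were 7.57, 2.35, 2.14 and 2.55. For the 33 pairs at 150 to 300 kb they were 6.81, 3.85, 2.69 and 2.77. Thus over these 3 bins the WT median was lower and those of Npm1c and Flt3-ITD higher away from the Fgfbp3 and Kif11 ends, and the medians of DM differed little. The last 4 pairs, at 300 to 600 kb, had medians of 6.48, 3.88, 5.55 and 4.36. Spearman's rho between the sum and the mean score was -0.59 for WT and 0.59, 0.50 and 0.30 for Npm1c, Flt3-ITD and DM, each over 79 pairs that share baits, fragments and libraries, given as a description. Within single baits, for the Fgfbp3, Gm9056 and upstream-of-Ide baits rho was -0.71, -0.56 and -0.39 in WT and 0.19, 0.48 and 0.66 in Npm1c. In the same order it was 0.30, 0.68 and 0.60 in Flt3-ITD, and -0.45, 0.67 and 0.07 in DM. DM thus had the sign of WT within the Fgfbp3 bait. The sum runs opposite to the distance between the ends in most pairs (rho of the mean score with that distance was 0.52 in WT and -0.52 in Npm1c), so the 2 measures cannot be told apart. The part of copy number in the WT peak at these ends, in the rise of the WT score with distance and in the higher scores of WT replicate 2 was not tested.

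**Figure D4:**
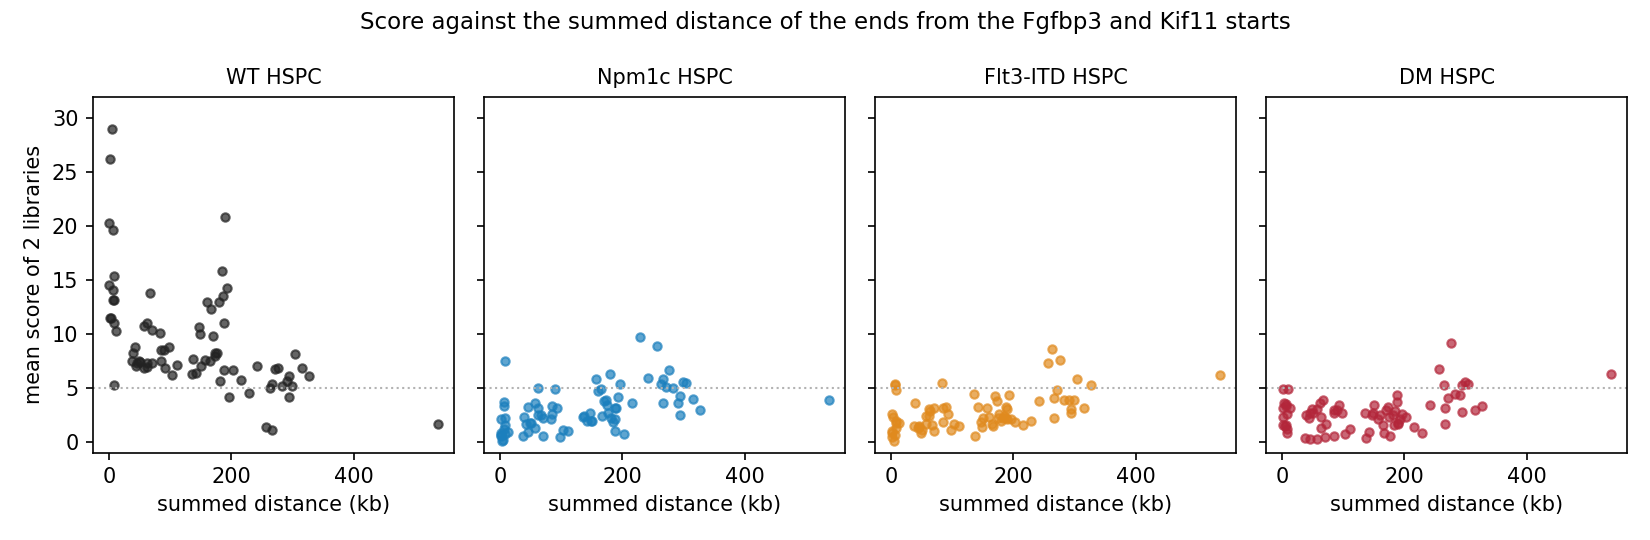
Mean score of the 2 libraries of each HSPC group (y axis) against the summed distance in kb of a pair's ends from the Fgfbp3 and Kif11 starts (x axis); each point is 1 of 79 pairs and the dotted line is the listing score of 5. WT points are highest near 0 kb, where the median of pairs under 50 kb is 11.5, and the mutant medians of those pairs are 1.35 to 2.56.

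Some fragments gave low mean scores in the mutants over several baits. The fragment beside Fgfbp3 (36912558-36916622) was listed from 4 baits, Kif11, Hhex, Gm9056 and the one upstream of Ide, and its mean over them was 10.3 and 17.6 in WT and between 0.619 and 2.19 in the mutant libraries. That mean includes the strong Kif11 pair, at 23.4 and 34.6 in WT. The fragment inside Kif11 (37377007-37378584) was listed from Fgfbp3 and Btaf1, with means of 16.6 and 24.9 in WT and between 0 and 3.85 in the mutants. In contrast, a fragment inside Cpeb3 (37050514-37057695), seen from 3 baits, had means of 5.54 and 9.72 in WT and between 4.60 and 6.79 in the mutants, so the groups overlapped. They also overlapped for the Btaf1 start fragment (WT 3.995 and 10.7, mutants 1.77 to 7.75), the short Btaf1 fragment 36928050-36928676 (5.4 and 6.9, 3.09 to 5.55) and the Gm9056 fragment (4.59 and 9.35, 0.761 to 4.88). In the rest of the fragments listed from several baits, both WT means lay above all mutant means.

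The contrast of WT neutrophils with WT HSPCs shares the WT HSPC values on which the locus was chosen for being high, so it is no independent comparison and its direction supports nothing. It covers the 17 pairs in both lists, which were deposited separately with their relative scaling not stated. The test (limma on log2(score + 1) over the 14093 pairs in both lists, two-sided, Benjamini-Hochberg) called 0 of the 17, against 0.206% of all shared pairs higher and 0.0% lower in neutrophils. At an unadjusted p under 0.05, 2 of the 17 were lower and 0 higher. Over all 14093 shared pairs, 2798 were under that p, with both directions counted together. Neutrophils minus WT HSPCs was -0.28 ± 0.29 (SE) for the Kif11 view of Fgfbp3 (limma adjusted p = 0.624) and 0.13 ± 0.29 for the Fgfbp3 view of Kif11 (adjusted p = 0.845). The pair with the fragment beside Fgfbp3 had the largest difference, -1.11 ± 0.46 (adjusted p = 0.244). The median over the 17 was -0.51, while the median over all shared pairs was 0.30, and 15 of the 17 lay below 0. This rests on WT HSPC replicate 2: without it the median was -0.10 with 9 of the 17 below 0 and 1 lower at an unadjusted p under 0.05, while without WT HSPC replicate 1 it was -0.92 with 15 below 0 and 9 lower. A p that misses the threshold does not show that the cell types score alike.

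Among the pairs that passed in WT alone of the HSPC groups, 16 of the 67 of this locus, or 23.9%, were in the neutrophil list, and 772 of all 9087 such pairs, or 8.50%, were. Among all pairs that passed in WT, whatever the mutants did, the shares were 16 of 69 at the locus, or 23.2%, and 7936 of 30921 in the whole list, or 25.7%. The locus share was thus above or just below that of the listed pairs depending on the pairs it is set against, and nothing is read from it. Of all 18 locus pairs in the neutrophil list, 6 came from the Kif11 bait, which is all it had, with 3 from Fgfbp3, 3 from Btaf1, 5 from Gm9056 and 1 from the bait upstream of Ide. The neutrophil means of the strongest pairs, 18.1 ± 1.32 for the Fgfbp3 bait with the fragment inside Kif11 and 13.9 ± 8.60 for the Kif11 bait with the fragment beside Fgfbp3, cannot be set against the mutant HSPCs as a result, since a pair enters the neutrophil list only at 5 or more in both libraries and the locus was chosen for low mutant scores.

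The mutant groups were also compared with each other, a contrast that leaves out WT but is not independent of the choice of the locus. The locus was chosen for low mutant scores, and low scores leave little room for differences between mutants. The test (limma over all 88624 pairs, 8 HSPC libraries in 1 fit, Benjamini-Hochberg) called 0 of the 79 pairs in each of the 3 contrasts. The shares called over all pairs were 0.27% higher and 0.28% lower for DM against Npm1c, 0.138% and 0.333% for DM against Flt3-ITD, and 0.151% and 0.289% for Npm1c against Flt3-ITD. At an unadjusted p under 0.05, DM against Npm1c had 5 pairs up and 7 down, DM against Flt3-ITD 1 up and 2 down, and Npm1c against Flt3-ITD 5 up and 1 down. Over all 88624 pairs, 15642, 10612 and 7797 were under that p in these contrasts, with both directions counted together. The median differences over the 79 pairs were -0.03, -0.04 and 0.01. The smallest p was that of the Fgfbp3 bait with the fragment inside Kif11, which was 2.02 ± 0.45 (SE) higher in DM than in Npm1c (limma adjusted p = 0.103). As bait means, fitted over 6060 gene-bearing baits, Kif11 and Fgfbp3 were not called in any of these contrasts either, with limma adjusted p between 0.454 and 0.903. The shares called over all such baits were 7.67% higher and 4.54% lower for DM against Npm1c, 0.281% and 0.479% for DM against Flt3-ITD, and 0.0165% and 0.066% for Npm1c against Flt3-ITD. The Kif11 bait mean was 0.34 ± 0.28 (SE) higher in DM than in Npm1c, and that of Fgfbp3 0.06 ± 0.20. So the scores were low in all 3 genotypes, and no difference between genotypes passed the test with 2 libraries a group.

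Against WT, where the locus was chosen, the same fit called 2 of the 79 pairs lower in Npm1c (all pairs: 0.0869%), 3 in Flt3-ITD (0.0925%) and 3 in DM (0.157%), and 0 higher (all pairs: 0.231%, 0.484% and 0.413%). The Kif11 bait with the fragment beside Fgfbp3 was called in each, by -4.64, -4.79 and -3.89 for Npm1c, Flt3-ITD and DM. The other calls were all pairs of the Fgfbp3 bait. The differences lay below 0 in 69, 74 and 72 of the 79, with medians of -1.53, -1.43 and -1.51, while the medians over all pairs were 0.12, 0.23 and 0.16. These calls are given for completeness and support nothing. With either WT library left out, or a library of the mutant group concerned, 0 pairs were called; in DM the same held with either Flt3-ITD library left out, and in Flt3-ITD 1 pair was called with either DM library left out.

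The 5 listed pairs outside the locus whose 8 HSPC values were nearest to the mean of the reciprocal pairs (Euclidean distance on log2(score + 1)) lie on other chromosomes. The nearest, at a distance of 1.28, was a bait on chromosome 12 with no gene end, at 9.64 and 13.0 in WT. The others were a bait of Wdr55 (chromosome 18, distance 1.63, WT mean 10.4 ± 1.25), Zscan26 (chromosome 13, 1.73, 7.85 ± 0.000264), a bait on chromosome X with no gene end (1.75, 7.40 ± 1.34) and Olfr26 (chromosome 9, 1.87, 8.33 ± 2.86). None of the 5 was in the neutrophil list, which holds 15.9% of all listed HSPC pairs, so nothing is read from their absence. All 5 had a lower WT mean than either reciprocal pair.

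Lists of genes with roles like those of Kif11 and Fgfbp3 give the setting, as the mean of log2(score + 1) per bait, fitted for 6060 gene-bearing baits that had at least 3 pairs. Of 28 mitotic spindle genes, 24 had a bait and 14 baits were tested. In Npm1c and in Flt3-ITD, 1 was lower and 0 were higher than in WT (all baits: 0.116% and 0.149% lower, 0.512% and 2.41% higher), and in DM 2 were lower and 0 higher (2.48% and 12.0%). The lower bait is Kif11 itself, present by the choice of the locus, and in DM also Kif14, a kinesin of cytokinesis (-0.74 ± 0.21 SE, limma adjusted p = 0.0486). The medians of the list were 0.15, 0.32 and 0.37 in Npm1c, Flt3-ITD and DM, and those of all baits were 0.12, 0.24 and 0.16. Of 32 genes of the FGF pathway, 14 had a bait and 7 baits were tested. In each mutant 1 was lower, again Fgfbp3 itself. In DM 2 were higher: Fgf8, a ligand of limb and brain patterning (0.67 ± 0.16 SE, limma adjusted p = 0.0291), and Fgf23, a bone hormone that controls phosphate (0.96 ± 0.25, adjusted p = 0.0355). The medians of the list were -0.47, -0.19 and -0.45.

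Baits of genes of mature blood cells were also followed, though the contact score of a bait does not measure how many cells of a type are present. Of 26 genes, 16 had a bait and 18 baits were tested. In Npm1c and in Flt3-ITD, limma called 0 (4 higher and 0 lower, and 6 higher and 1 lower, at an unadjusted p under 0.05). Over all 6060 baits, 1037 and 1611 were under that p in these contrasts, with both directions counted together. In DM 4 were higher (Mmp8, a neutrophil collagenase, by 2 baits; Ly6g, a neutrophil surface protein; Cd79b, a B cell receptor chain) and 1 was lower (Hba-a1, an alpha globin), where 12.0% of all 6060 baits were higher and 2.48% lower. The baits of the neutrophil genes S100a8, S100a9, Camp, Ngp and Elane were not called in DM. The medians of the list were 0.13, 0.29 and 0.18, near those of all baits. The part of cell mixture in the locus values was not tested.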

How the data were processed

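Each deposited file holds, per the file headers, 1 interaction score per pair of a captured HindIII fragment (bait) and another fragment, and the distance in bp, another quantity. The score is never negative, and what the authors made it relative to, the aligner and the caller are not given in the sources used here; the build is mm10, per the submitters' processing notes. The files hold no counts, so depth is unknown and precision could be judged only from the spread between replicates. The p-values measure only that spread, pooled over the groups of a fit and moderated towards the spread of all pairs or baits fitted.

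Scores were tested as log2(score + 1) by linear models with moderated variances (limma 3.58.1, R 4.3.3). Tests were two-sided and adjusted over all listed pairs by Benjamini-Hochberg, with a threshold of 0.05. The fits used all 8 HSPC libraries together and the 4 WT libraries in another fit. The code was tested on simulated data. Gene ends came from RefSeq (GRCm38.p6). Tables and figures were made in Python 3.11.15. Named pairs were all pairs of the Kif11 and Fgfbp3 baits and up to 25 others with the highest group mean in any group; a few named for other reasons were chosen after their values were seen, and outside the locus the 5 pairs nearest by Euclidean distance. Alternatives were quantile normalization, pseudocounts of 0.1 and 5, a mean score of at least 3, a replicate block, each library left out, thresholds of 3 and 10, and other minimum pairs per bait. The members and the lists (mitotic spindle, FGF pathway, mature blood cells) were chosen with earlier results of these data known.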

Additional observations from a re-analysis of the deposited data

How the results depend on the processing

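The count of pairs called lower against WT moved with most settings, in Npm1c, Flt3-ITD and DM from 2, 3 and 3: quantile normalization gave 4 in Npm1c and 8 in Flt3-ITD, a pseudocount of 0.1 gave 1, 0 and 0, a pseudocount of 5 gave 6 in Flt3-ITD and 0 in DM, and a mean score of at least 3 gave 0, 1 and 0. Leaving out each library gave 0 to 2, 0 to 3 and 0 to 3. The median difference over the locus stayed below 0 throughout, between -1.91 and -0.81. The replicate block gave 2, 2 and 2 calls against WT and 0 in the other contrasts. The replicate 1 minus replicate 2 differences of log2(score + 1) correlated between groups by -0.0135 to 0.0711, which gives no sign that the numbers pair libraries across groups. No setting gave a call among mutants or for neutrophils. The number of pairs with WT above all mutants was 58 to 66 with each library left out, an alternative chosen after seeing the data. Leaving a library out can only keep or raise this number, so the range says nothing about how stable it is. For the Kif11 view of Fgfbp3 a pseudocount of 0.1 gave -5.80 (Npm1c) and -5.49 (Flt3-ITD), a pseudocount of 5 gave -2.18 and -2.10, and quantile normalization gave -0.34 for neutrophils. For the Fgfbp3 view of Kif11 a pseudocount of 0.1 gave -5.16, -5.10 and -4.67 (DM), and a pseudocount of 5 gave -1.77 (Npm1c) and -1.75 (Flt3-ITD). With each library left out the Kif11 view ran from -4.41 to -3.25 in Npm1c, -4.41 to -2.84 in Flt3-ITD and -4.41 to -1.93 in DM, and the Fgfbp3 view from -3.95 to -2.60, -2.52 and -1.89. A threshold of 3 gave 24, 19 and 12 passing pairs in Npm1c, Flt3-ITD and DM, a threshold of 10 gave 10 in WT, 0 in each mutant and 4 in neutrophils, and a mean of 5 gave 9 in Flt3-ITD and 7 in DM. Calls in the spindle list were 2 in Npm1c at 5 or more pairs per bait, 3 in Flt3-ITD at 1 or more and 2 at 5 or more, and 1 in DM at 1 or more and 0 at 10 or more. The FGF list gave 2 in Flt3-ITD at 1 or more, and 1 in DM at 1, 5 or 10 or more. The blood list gave 1 in Flt3-ITD at 10 or more and 3 in DM at 1 or more. The causes were not tested. Leaving out libraries was not run for the lists or the threshold counts. With 2 libraries a group and no counts, large as well as small differences can miss the threshold, so a pair that was not called is not shown to be alike between groups.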
